A study of Mus musculus with 2 samples.

Results

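The genes described here build and police the mitotic spindle: kinetochore and centromere subunits, the spindle checkpoint, the mitotic kinases with their activators and substrates, and the factors that drive anaphase. They were taken as a list of 47 gene symbols, and every probe set whose platform annotation names 1 of them alone was used. All 47 genes were found, on 100 probe sets, among 18193 genes on 34945 probe sets that name a single gene. RNA came from activated CD8+ T cells, proliferating at 72 h after activation, and from naive CD8+ T cells. Both were purified from pmel-1 mice, a transgenic line whose T cells share a single receptor that recognises a pigment cell antigen, so that the transgene is common to both groups. The sources used here do not give the stimulus, the source organ or the age of the mice. Each group was 1 RNA pool of 4 independent experiments on 1 Affymetrix mouse array. With no replicate array, no difference below has an error or a test, the precision is limited by the number of arrays, and the spread between the pooled experiments cannot be seen. RNA from bulk cells was measured, so that fewer cells in mitosis and less RNA in each of them cannot be told apart.

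A dividing cell attaches each chromosome to spindle microtubules through a kinetochore, a layered protein assembly that forms on centromeric chromatin marked by the histone variant CENP-A. The spindle checkpoint reads unattached kinetochores and holds back the anaphase-promoting complex (APC/C), the ubiquitin ligase that starts chromosome separation. Kinases of the CDK1, Aurora and Polo families drive these steps. Resting naive T cells sit outside the cell cycle and enter rapid division after antigen recognition, and many of these genes are transcribed mainly in G2 and mitosis of cycling cells.

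In activated cells 46 of the 47 genes were higher than in naive cells by the size rule, and Pttg1, the gene of the separase inhibitor securin, did not pass it. The rule asks that the deposited linear intensities differ by more than 100 and that their ratio, after values under 100 are raised to 100, is at least 1.4. Each gene was read from its brightest probe set, the one with the highest mean over both arrays. Of the 9842 genes that reached 100 on either array by that probe set, 23.7% were higher and 20.6% lower by the same rule. The median log2 ratio of activated over naive was 3.14 for the 47 genes, against 0.01 for all 9842. A ratio of at least 4-fold was met by 39 of the 47 genes and by 3.27% of all measured genes, and a ratio of at least 8-fold by 27 and by 1.12%. Intensities of the 47 genes had a median of 1198 on the activated array and 81.4 on the naive array. These are descriptions of 2 arrays, and the 46 calls come from a list put together with earlier results of these data known.

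**Figure D1:**
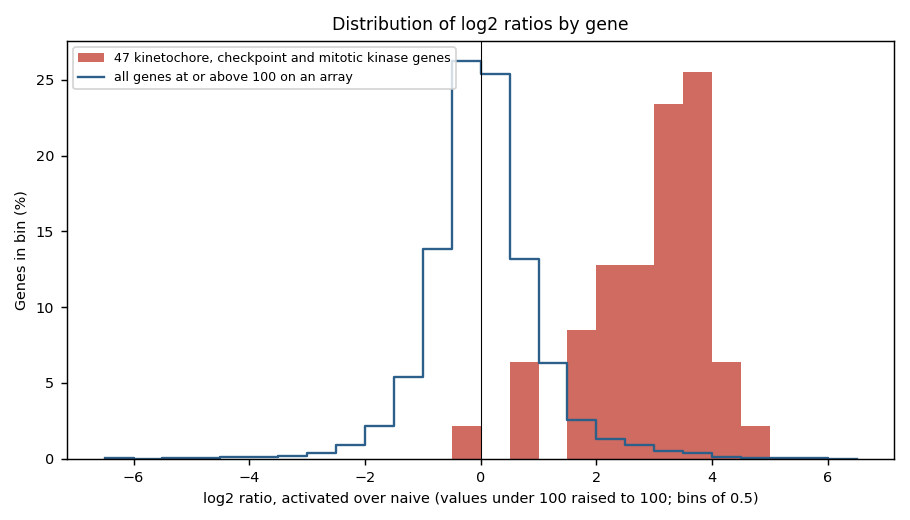
Share of genes in each bin of the log2 ratio of activated over naive cells, for the 47 genes (red bars) and for all 9842 genes at or above 100 on an array (blue line). Most of the 47 genes lie above 2 on the horizontal axis, where few of all genes lie, and Pttg1 is the red bar below 0.

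The naive array decides how each ratio can be read. It lay under 100 for 24 of the 47 genes, which entered the comparison through the activated array alone, and their ratios are lower bounds. All 24 were higher by the size rule, against 54.9% of all genes in the same position (naive under 100, activated at or above 100). A gene in that position cannot be lower by the rule. Of the other 23 genes, with naive intensities between 113 and 2466, 22 were higher, against 21.2% of all genes with a naive intensity of at least 100. Their median log2 ratio was 3.14, against 0.01 for all genes at or above 100 on both arrays, and 18 of the 23 differed at least 4-fold, against 1.94%. Each role group below holds genes with naive under 100, so its count of higher genes is to be read beside these shares.

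**Figure D2:**
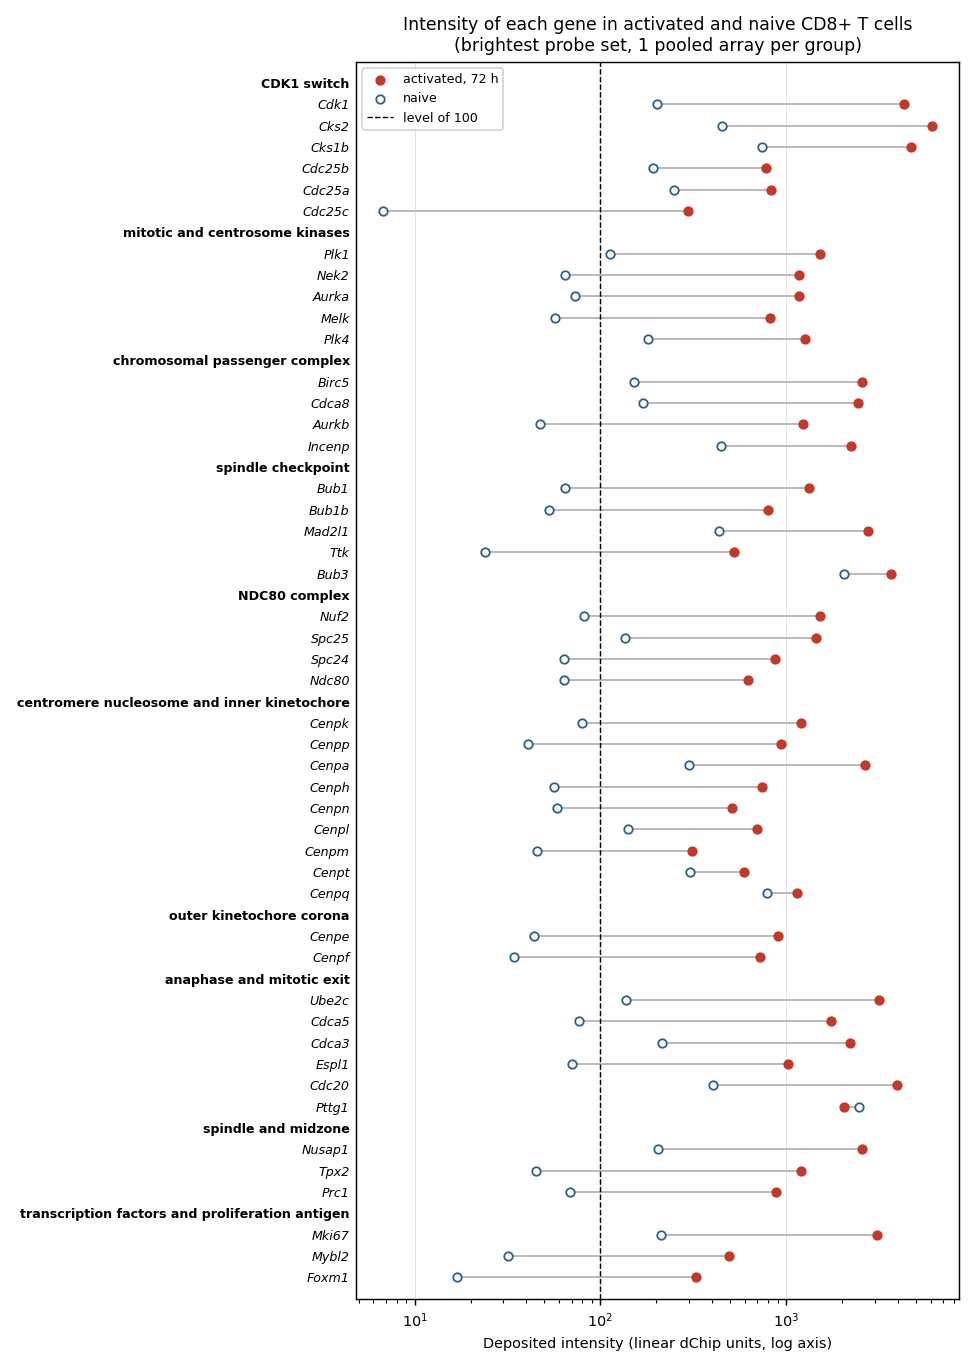
Deposited intensity on a log axis for each gene by its brightest probe set, with activated cells as filled red points and naive cells as open blue points (1 pooled array each, no error bars), grouped by role. Every red point except that of Pttg1 lies to the right of its blue point, and 24 blue points lie left of the dashed line at 100.

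The promoters of genes that peak in G2 and mitosis are known for 2 short elements. The CHR element binds the DREAM and MuvB complexes, which keep such genes off in resting cells and turn them on in G2, and the CCAAT box binds the factor NF-Y. The windows below run from 250 bases before to 50 bases after the RefSeq start site (build GRCm38.p6) and read 5′ to 3′ on the gene's strand. They belong to the 4 higher genes with the highest activated intensity among those with a window, and to Pttg1, which was added after its values were seen because it did not pass the size rule. Capitals mark matches to any of the elements on either strand. The CHR element was searched as TTTGAA, and also in the form TTCGAA. The CCAAT box was searched by those letters alone. The E2F site was searched as TTTCCCGC, TTTCGCGC, TTTGCCGC or TTTGGCGC.
Cdk1, chr10:69352863-69353162, minus strand: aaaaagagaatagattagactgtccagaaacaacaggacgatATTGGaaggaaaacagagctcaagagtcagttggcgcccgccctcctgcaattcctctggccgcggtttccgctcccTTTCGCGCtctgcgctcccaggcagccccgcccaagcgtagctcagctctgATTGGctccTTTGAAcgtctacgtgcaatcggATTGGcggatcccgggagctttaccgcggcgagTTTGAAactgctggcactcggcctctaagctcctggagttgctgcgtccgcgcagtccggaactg
Cks2, chr13:51644982-51645281, plus strand: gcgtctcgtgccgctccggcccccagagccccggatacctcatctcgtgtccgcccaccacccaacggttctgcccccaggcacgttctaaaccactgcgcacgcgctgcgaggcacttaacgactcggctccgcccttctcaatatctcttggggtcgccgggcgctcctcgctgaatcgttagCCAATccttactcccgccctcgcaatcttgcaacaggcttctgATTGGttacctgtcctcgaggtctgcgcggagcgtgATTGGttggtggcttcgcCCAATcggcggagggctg
Cks1b, chr3:89418242-89418541, minus strand: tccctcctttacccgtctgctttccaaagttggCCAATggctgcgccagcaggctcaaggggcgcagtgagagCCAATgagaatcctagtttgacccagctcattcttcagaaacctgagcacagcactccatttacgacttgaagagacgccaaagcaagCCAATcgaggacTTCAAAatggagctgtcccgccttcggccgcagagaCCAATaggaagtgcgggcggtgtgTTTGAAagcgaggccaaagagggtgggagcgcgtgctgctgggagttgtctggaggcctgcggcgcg
Cdc20, chr4:118437294-118437593, minus strand: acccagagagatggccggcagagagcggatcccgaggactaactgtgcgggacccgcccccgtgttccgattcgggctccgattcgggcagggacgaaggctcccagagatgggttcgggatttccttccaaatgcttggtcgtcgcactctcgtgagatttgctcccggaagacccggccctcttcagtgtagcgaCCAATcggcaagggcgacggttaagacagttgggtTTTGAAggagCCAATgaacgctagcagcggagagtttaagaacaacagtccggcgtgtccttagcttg
Pttg1, chr11:43425932-43426231, minus strand: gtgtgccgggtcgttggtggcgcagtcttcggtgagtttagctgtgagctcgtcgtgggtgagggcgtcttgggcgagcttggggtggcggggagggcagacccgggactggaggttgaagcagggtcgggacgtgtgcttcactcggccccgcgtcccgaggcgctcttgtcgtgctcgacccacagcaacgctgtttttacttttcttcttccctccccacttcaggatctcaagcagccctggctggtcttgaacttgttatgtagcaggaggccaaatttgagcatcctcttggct
The Cdk1 window holds 2 CHR matches, 3 CCAAT matches and 1 E2F match. Cks1b has 2 CHR and 4 CCAAT matches, Cdc20 has 1 CHR and 2 CCAAT matches, and Cks2 has 4 CCAAT matches and 0 CHR matches. In the Pttg1 window none of these letters were found, which says nothing about factors that bind elsewhere.

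Across the list, 41 of the 47 genes had at least 1 window in the RefSeq table, with 45 windows in all. The CHR letters stood in 26 of the 45 windows (57.8%), against 14.2% of the 10219 windows of genes measured on the arrays and 19.2% of all 32851 windows of the table. CCAAT stood in 33 windows (73.3%), against 37.9% and 37.4%, and the E2F letters in 4 (8.89%), against 4.22% and 2.26%. Both CHR and CCAAT were found in 24 windows (53.3%), against 5.74% of the windows of measured genes. Of 31 CHR matches, 23 began within 50 bases of the start site, with a median position of -15. Of the 69 CCAAT matches 25 did so, and their median position was -68. Among all matches in these windows 1 overlapped a match of another motif, and a few genes have more than 1 window, which can share bases. Besides Pttg1, 9 higher genes also lacked every one of the motifs, among them Birc5, Mad2l1, Nuf2, Nusap1 and Plk4. A match is a description of letters only. Among the smallest ratios, Bub3 (1.77-fold) holds both CHR and CCAAT, Cenpq (1.45-fold) holds CCAAT and Cenpt (1.95-fold) holds none of the motifs.

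**Figure D3:**
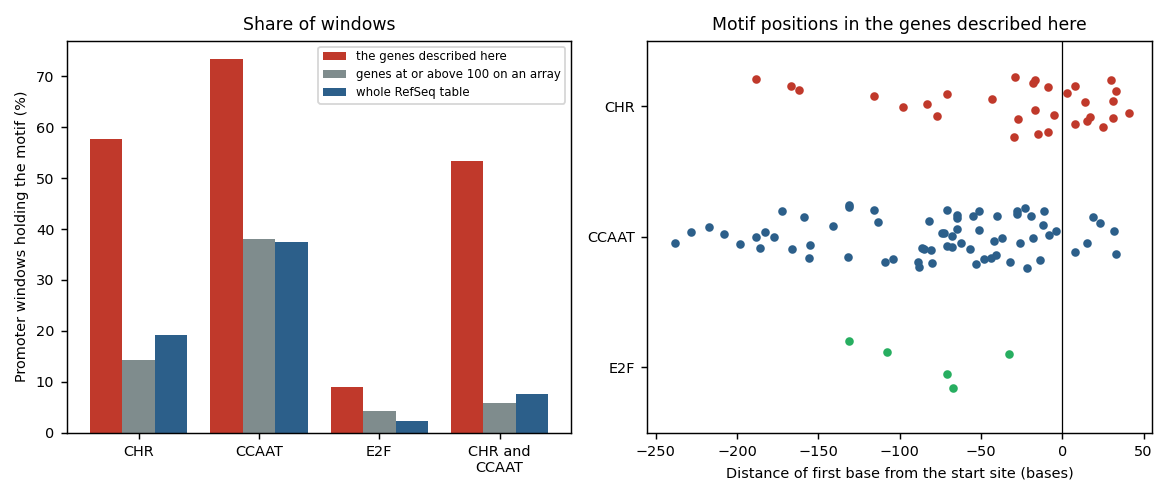
Left, percent of promoter windows that hold each motif, for the genes described here (red), genes at or above 100 on an array (grey) and the whole RefSeq table (blue). Right, distance in bases of each match's first base from the start site in windows of the genes described here. CHR matches gather close to the start (median -15), and CCAAT matches spread more widely (median -68), with 25 of 69 within 50 bases of the start site.

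The CDK1 switch, which commits a cell to mitosis, was higher in all 6 of its genes, with a median log2 ratio of 2.34. Cdk1, the mitotic cyclin-dependent kinase, was at 4341 in activated cells and 202 in naive cells (21.4-fold higher). Its small binding partners Cks2 and Cks1b, which help CDK complexes engage their substrates, were at 6103 and 4708 in activated cells, against 449.9 and 743 in naive cells. Cks2 was thus 13.6-fold higher and Cks1b 6.34-fold, and the second probe sets of both were higher too, with log2 ratios of 3.72 and 3.36. The CDC25 phosphatases remove the inhibitory phosphates from CDK1. Cdc25a, which also acts at the G1/S step, was at 827 in activated and 248 in naive cells (3.33-fold higher), and Cdc25b was at 778 and 192 (4.06-fold). Cdc25c was at 298 in activated cells and 6.79 in naive cells, which gives a lower bound of 2.98-fold. As a bound, the ratio of Cdc25c cannot be ranked against the others.

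All 5 further mitotic and centrosome kinases were higher, with a median of 3.55 and each at least 4-fold. Plk1, the Polo kinase of centrosome maturation, kinetochore attachment and cytokinesis, was at 1521 in activated and 113 in naive cells (13.5-fold higher). Plk4, which licenses centriole duplication, was at 1268 and 181 (7.01-fold), and all 3 of its probe sets were higher. Aurka, the spindle pole Aurora kinase, was at 1169 in activated and 73.0 in naive cells, at least 11.7-fold higher. For Aurka, as for the remaining kinases of the group, the naive value lay under 100. Nek2, which separates centrosomes, was at 1171 and 64.4 (at least 11.7-fold), and Melk, a kinase abundant in dividing cells, at 823 and 56.9 (at least 8.23-fold).

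The chromosomal passenger complex, which corrects faulty attachments and later organises the midzone, was higher in all 4 subunits, with a median of 3.73. Its kinase Aurkb was at 1232 in activated cells and 47.5 in naive cells (at least 12.3-fold higher). Birc5 (survivin), which brings the complex to centromeres, was at 2575 and 151 (17.1-fold higher). Cdca8 (borealin) was at 2424 in activated and 169 in naive cells (14.3-fold). These ratios, with that of Aurkb a lower bound, all exceeded that of the scaffold Incenp. Incenp was at 2232 in activated and 447 in naive cells (4.99-fold higher), and its next brightest probe set gave a similar log2 ratio of 2.47. A dimmer one, at 221 and 28.8, gave a lower bound of 1.14.

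All 5 spindle checkpoint genes were higher, with log2 ratios from 0.83 to 3.73 and a median of 2.66. Only 2 of them were at or above 100 on both arrays, with a median of 1.74. In that position 1936 of 8395 of all genes were higher. Bub1, a kinetochore kinase that recruits other checkpoint proteins, was at 1327 in activated and 64.2 in naive cells (at least 13.3-fold higher). Bub1b (BubR1), a part of the mitotic checkpoint complex that inhibits the APC/C, was at 802 and 52.8 (at least 8.02-fold). Ttk (MPS1), the kinase at the top of the checkpoint, was at 527 in activated and 23.8 in naive cells, at least 5.27-fold higher. The naive values of Bub1, Bub1b and Ttk all lay under 100. Mad2l1, encoding the MAD2 protein that binds CDC20, was at 2773 in activated cells and at 438 in naive cells (6.33-fold higher). Bub3, the small adaptor that carries BUB1 and BubR1 to kinetochores, was at 3651 in activated and 2059 in naive cells, 1.77-fold higher. Bub3 therefore did not reach 2-fold by this probe set. Another probe set gave a log2 ratio of 1.21, and a dim one, at 88.8 in activated and 120.1 in naive cells, gave -0.26 and did not pass.

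The 4 subunits of the NDC80 complex, the rod that grips the microtubule end, were all higher, with a median of 3.28. Spc25 was at 1446 in activated and 135 in naive cells (10.7-fold higher). Nuf2 was at 1523 and 81.4, Spc24 at 877 and 63.7, and Ndc80 at 624 and 64.0 in activated and naive cells. The lower bounds of these ratios were 15.2-fold for Nuf2, 8.77-fold for Spc24 and 6.24-fold for Ndc80. Each subunit rested on a single measured probe set. The corona proteins Cenpe, a kinesin that carries chromosomes to the spindle equator, and Cenpf were also higher. Cenpe was at 903 in activated and 43.9 in naive cells (at least 9.03-fold), and Cenpf at 719.6 and 34.2 (at least 7.20-fold). A second Cenpf probe set was dimmer, at 155 and 25.9, and passed with a lower bound of 0.64 on the log2 scale.

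The centromere nucleosome and inner kinetochore genes were higher in 9 of 9 cases, with log2 ratios from 0.54 to 3.58 and a median of 2.36. Only 4 of the 9 were at or above 100 on both arrays, with a median of 1.63. Cenpa, the centromeric histone H3 variant, was at 2664 in activated and 302 in naive cells (8.83-fold higher). Cenpl, the partner of the CENP-N protein that reads the CENP-A nucleosome, was at 693 and 142 (4.89-fold), and Cenpn was at 512 and 58.1 (at least 5.12-fold). Cenph, Cenpk and Cenpm, subunits that sit together in the constitutive centromere network, were at 739.6, 1199 and 310.3 in activated cells, against 56.6, 79.5 and 45.7 in naive cells. Their lower bounds were 7.40-fold, 12.0-fold and 3.10-fold. Cenpp was at 944 in activated and 40.6 in naive cells (at least 9.44-fold), although a dimmer probe set of the gene was at 179 and 157 and did not pass. The remaining subunits had the smallest ratios of the group. Cenpt, which links centromeric DNA to the NDC80 complex, was at 595 in activated and 305 in naive cells (1.95-fold higher). Cenpq was at 1147 and 788 (1.45-fold), the smallest ratio of the 46 higher genes, and it did not pass with quantile or loess scaling of the arrays.

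Of 6 anaphase and mitotic exit genes 5 were higher, with a median of 3.35 over the 6. They include the highest ratio among the 23 genes at or above 100 on both arrays. Ube2c, the ubiquitin-conjugating enzyme that starts chains for the APC/C, was at 3174 in activated and 138 in naive cells (23.0-fold higher). Cdc20, the APC/C activator targeted by the checkpoint, was at 3962 and 406 (9.75-fold), and a second probe set at 2007 and 191 gave a log2 ratio of 3.39. Another Cdc20 probe set was at 108 in activated cells, with 1 in naive cells, and did not pass. Cdca3, a trigger of mitotic entry, was at 2206 in activated and 216 in naive cells (10.2-fold higher). Cdca5 (sororin), which protects sister chromatid cohesion until anaphase, was at 1738 and 76.3 (at least 17.4-fold).

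Separase, the protease that cuts cohesin, and its inhibitor securin did not go the same way. Espl1 (separase) was at 1021 in activated and 70.6 in naive cells, at least 10.2-fold higher. Pttg1 (securin) was at 2059 in activated and 2466 in naive cells, a log2 ratio of -0.26. Its other probe sets were at 957 and 59.8 in activated cells, against 1092 and 139 in naive cells. All 3 Pttg1 probe sets were thus lower in activated cells, with log2 ratios from -0.48 to -0.19, and none passed the size rule. Its brightest probe set carries an s suffix, which marks probes shared by similar transcripts. The brightest probe sets of the higher genes Bub3, Cdca8, Nek2, Plk4 and Prc1 carry the same suffix, and those of Aurkb, Cdc20 and Incenp carry an x suffix. Other sequences may add to each of these probe sets, which was not tested. The Pttg1 probe set at 957 in activated and 1092 in naive cells carries an a suffix instead.

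The spindle and midzone genes were all higher, with a median of 3.58. Nusap1, which bundles spindle microtubules, was at 2577 in activated and 204 in naive cells (12.6-fold higher). Tpx2, which activates Aurora A and nucleates spindle microtubules, was at 1198 and 45.2 (at least 12.0-fold). Prc1, which crosslinks the midzone before cytokinesis, was at 885 in activated and 68.5 in naive cells (at least 8.85-fold). Each of these genes had every measured probe set higher.

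The transcription factors that drive this programme, and the Ki-67 antigen, were higher in 3 of 3 cases, with a median of 2.31. Mybl2 (B-MYB), which joins the MuvB complex in S phase, was at 494 in activated and 31.6 in naive cells (at least 4.94-fold higher). Foxm1, which follows it in G2, was at 326 and 16.9 by its brightest probe set (at least 3.26-fold). Other Foxm1 probe sets were at 172 and 158 in activated cells, against 78.0 and 68.8 in naive cells, and did not pass. A probe set that Foxm1 shares with Tex52 and Pebp1 was at 277 in activated and 31.7 in naive cells and was not counted. With the median over its probe sets, Foxm1 did not pass. Mki67, whose product Ki-67 coats mitotic chromosomes, was at 3079.8 in activated and 212 in naive cells (14.5-fold higher).

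Probe sets of the same gene mostly had the same call. Of the 100 probe sets, 79 reached 100 on an array, and of these 71 were higher, 8 did not pass and 0 were lower, against 21.9% higher and 19.3% lower among all 19250 probe sets that reached 100. The 8 that did not pass belonged to Pttg1 (3), Foxm1 (2), Cdc20, Cenpp and Bub3 (1 each). Of the 23 genes with several measured probe sets, 18 had all of them higher. Over the 7 genes with several probe sets at or above 100 on both arrays (14 probe sets), log2 ratios within a gene had a standard deviation of 0.22, against 0.39 over 3404 genes of the whole table. That spread leaves out probe sets with a naive value under 100. The lower bounds of such pairs were close for Aurkb (3.62 and 3.53) and far apart for Bub1 (3.73 and 0.64) and Tpx2 (3.58 and 1.08). Probe sets of the same gene share the RNA pools and are no replicates. The other 21 probe sets lay under 100 on both arrays and gave no ratio.

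**Figure D4:**
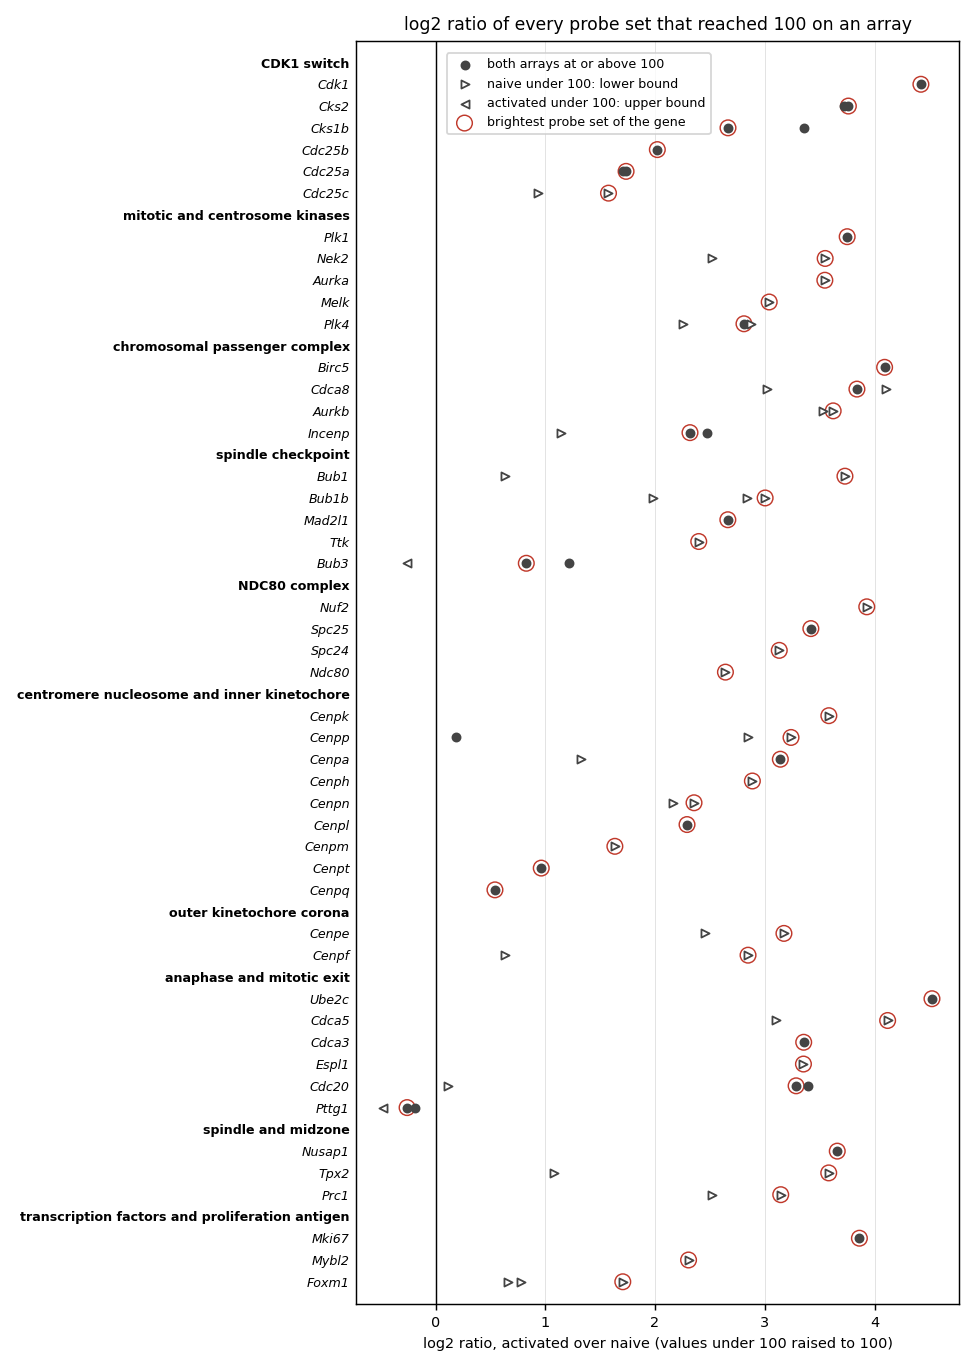
The log2 ratio of activated over naive cells for each of the 79 probe sets that reached 100 on an array, by gene and role. Filled circles have both arrays at or above 100, triangles are bounds with 1 array under 100, red rings mark the brightest probe set, and the 3 Pttg1 probe sets and 1 of Bub3 lie left of 0.

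Other genes of the same machinery were taken from lists by role, and a few of each are described. Some of these genes, too, entered with a naive value under 100 and could not be lower by the rule, so each list is also given for its genes at or above 100 on both arrays. Over all measured genes, 23.7% were higher and 20.6% lower. With both arrays at or above 100, 1936 of 8395 genes were higher. With naive under 100 and activated at or above 100, the share was 54.9%. In the rest of the outer kinetochore 13 of 14 genes passed as higher and 0 as lower, for a median of 1.89, and of those at or above 100 on both arrays 4 of 5 were higher (median 0.68). Spdl1, a dynein adaptor at kinetochores, was at 924 in activated and 64.2 in naive cells (at least 9.24-fold higher), and Ska1, of the complex that tracks microtubule ends, at 898 and 40.6 (at least 8.98-fold). Mis12, of the complex that joins the inner and outer kinetochore, was at 476 and 331 (1.44-fold), and Zw10, which also acts in vesicle traffic, at 555 and 412 did not pass. Among inner kinetochore and CENP-A loading genes 9 of 12 passed as higher and 0 as lower, for a median of 1.43, and of those at or above 100 on both arrays 6 of 9 were higher (median 0.67). Cenpw was at 1538 in activated and 194 in naive cells (7.93-fold higher), with a log2 ratio of 0.24 from its other measured probe set. Cenpi was at 532 and 13.2 (at least 5.32-fold), and Cenpb, Itgb3bp and Mis18a did not pass, with log2 ratios of 0.40, -0.31 and 0.32. Of the checkpoint and centromere guard genes 5 of 7 measured passed as higher and 0 as lower, for a median of 1.82 with the floor of 100 and 0.82 with a floor of 200. Of the guard genes at or above 100 on both arrays 1 of 3 was higher (median 0.29). Trip13, the ATPase that takes MAD2 complexes apart, was at 1861 in activated and 94.1 in naive cells (at least 18.6-fold), and Sgo1 (shugoshin), which shields centromeric cohesin, at 753 and 34.4 (at least 7.53-fold). Mad2l2 (502 and 485) and Mad2l1bp (609 and 497) did not pass, and Mad1l1 lay under 100 on both arrays.

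Core subunits of the APC/C had smaller ratios than Cdc20 and Ube2c, which act on it. Of the 14 core subunits 8 passed as higher and 0 as lower, for a median log2 ratio of 0.55 and none at 4-fold. By brightest probe set, Anapc15 had the highest ratio of the core, at 746 in activated and 240.3 in naive cells (3.10-fold), and Cdc27 was at 717 and 383 (1.87-fold). Over 4 probe sets each, log2 ratios ran from 0.25 to 1.63 for Anapc15 and from 0.90 to 1.72 for Cdc27. Their order thus depends on the probe set. Anapc11, Anapc13, Anapc2, Anapc4, Anapc16 and Cdc23 did not pass, with log2 ratios from -0.11 to 0.40 by brightest probe set. Some calls also depend on the probe set. Log2 ratios of Anapc1, called higher, ran from -0.47 to 0.65 over 5 measured probe sets. Those of Cdc26, also called higher, were -0.58 and 0.58 over 2, and Cdc23 had another probe set at 0.65. All 14 subunits were at or above 100 on both arrays, where 1936 of 8395 of all genes were higher. The chain-elongating enzyme Ube2s was at 5622 in activated and 1089 in naive cells (5.16-fold higher), the inhibitor Fbxo5 (EMI1) at 1361 and 413 (3.30-fold), and the G1 activator Fzr1 (CDH1) at 675 and 260.5 (2.59-fold). Over all 17 APC/C genes 11 were higher, and 4 with a fold minimum of 2. At that minimum 2121 of the 19250 probe sets of the whole table that reached 100 were higher.

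Brakes on CDK1 and mitotic phosphatases were higher in 5 of 10 genes and lower in 0, with a median of 0.44. Of those at or above 100 on both arrays 3 of 8 were higher (median 0.27), against 1936 of 8395 of all genes. With so few genes, that count is not read as a result about the list. Wee1, the kinase that puts the inhibitory phosphate on CDK1, was at 652 in activated and 83.3 in naive cells (at least 6.52-fold higher), and Mastl (Greatwall), which restrains the opposing phosphatase, at 243 and 27.8 (at least 2.43-fold). Pkmyt1 (1.84-fold), Ppp2r2d (1.45-fold) and the PP1 catalytic gene Ppp1cc (1.44-fold) passed with small ratios. The 2 measured probe sets of Ppp2r2d went opposite ways, with log2 ratios of 0.53 for the brightest and -0.81 for the other. Ensa, Arpp19, Cdc14a, Cdc14b and Ppp2r2a did not pass. In other PLK, NEK and Aurora kinases 3 of 7 measured genes passed as higher and 0 as lower, for a median of 0.46. All 3 were among 4 genes with a naive value under 100, a position where 54.9% of all genes were higher. By contrast, 0 of the 3 genes at or above 100 on both arrays passed (median -0.35). The list median was -0.13 with a floor of 200. Plk3, a stress-linked Polo kinase, was at 183 and 50.4, Nek6 at 200.5 and 57.2 and Nek4 at 149.8 and 16.6 in activated and naive cells, so that their ratios are lower bounds. Aurkc, best known from germ cells, and Plk2 lay under 100 on both arrays.

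**Figure D5:**
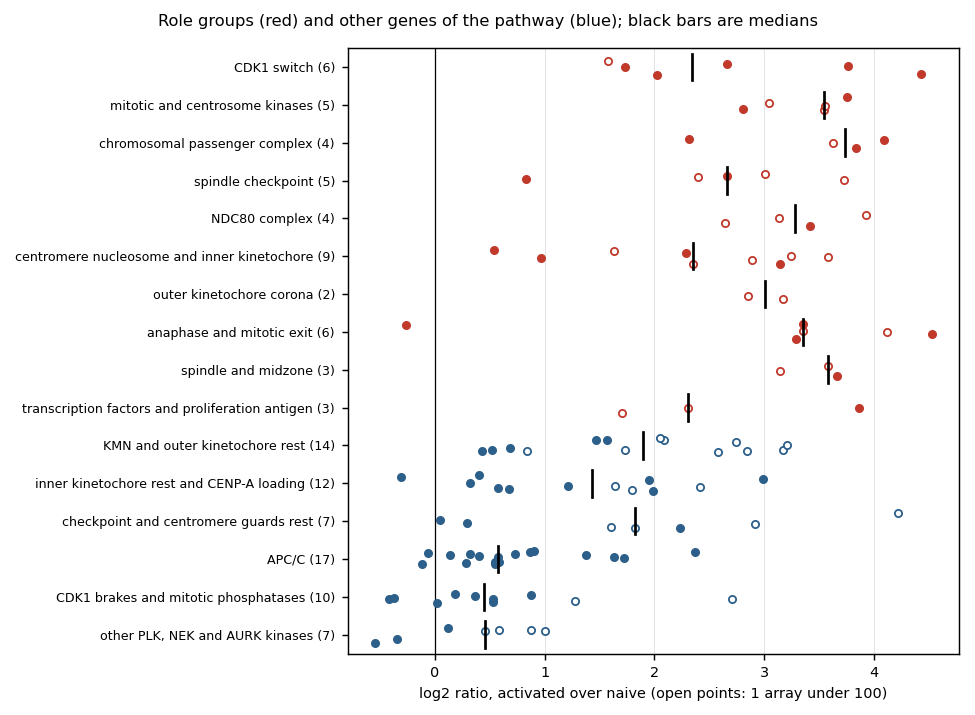
The log2 ratio of activated over naive cells for each gene of the 10 role groups (red) and of the other lists of the pathway (blue), with the number of measured genes in parentheses. Open points have 1 array under 100, black bars are medians, and the medians of the APC/C, CDK1 brake and other kinase lists lie between 0.44 and 0.58, below those of all 10 role groups. The medians are not like for like, since naive lay under 100 for 24 of the 47 role group genes and for 0 of 17 APC/C genes. The members were also chosen with earlier results known, and the order of the medians was not tested.

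CD8 T cell transcripts were abundant in both pools. By brightest probe set, Cd8a was at 4860.0 in activated and 6020.4 in naive cells and Cd3e at 2724 and 3035, neither past the size rule. Cd8b1, at 3554 and 7725, was lower, with a log2 ratio of -1.12. Over its 5 probe sets, however, log2 ratios of Cd8a ran from -1.39 to -0.31, so that its difference from Cd8b1 depends on the probe set. Only markers of other cells that reached 100 on an array could be called. Of these, 2 of 3 dendritic cell, 2 of 2 myeloid, 1 of 3 B cell, 1 of 1 NK cell and 0 of 1 erythroid genes were lower in activated cells. None was higher, but a gene with its naive value alone at or above 100 cannot be higher by the rule. Over all measured genes 20.6% were lower and 23.7% higher. The CD4 T cell genes lay under 100 on both arrays and could not be called. The genes of the dendritic cell list past the rule were Cd74, at 405 in activated and 3003 in naive cells, and H2-Aa, at 83.0 and 2007, which make up most of their list's sum. Over 4 measured probe sets, log2 ratios of H2-Aa ran from -4.33 to -0.03. Which cells gave the Cd74 and H2-Aa transcripts was not tested. The rest of that list did not show such a difference. Itgax was at 27.6 in activated and 115 in naive cells and did not pass, and Flt3 and Siglech lay under 100 on both arrays. Summed intensities in activated and naive cells were 606 and 5231 for 5 dendritic cell markers, 579 and 1047 for 5 myeloid markers, 109 and 541 for 3 B cell markers and 57.7 and 297 for 2 NK cell markers. The summed intensity of 2 erythroid markers was 46.9 in activated and 178 in naive cells, with Alas2 at the lowest value of the table, 1, in activated cells. For the CD4 T cell genes Cd4 and Foxp3 it was 116 and 122, with every value under 100. The part of these other cells in the results above was not tested.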

How the data were processed

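Gene expression was measured on 1 array of activated and 1 of naive CD8+ T cells, each a pool of RNA from 4 experiments. The authors deposited 1 linear intensity per probe set, computed with the difference model of dChip and normalized by its invariant set method, per the series' design text. Detection calls, from GCOS 1.3 per the design text, and confidence bounds were not used here. The size rule keeps the fold and difference minimums of that text (1.4 and 100). Differences near background are understated, since values under 100 were raised to 100.

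Controls (64) were left out of 45101 rows. Of the other 45037 probe sets, 34945 named 1 gene, 932 several and 9160 none. RefSeq (GRCm38.p6) changed 0 symbols. All 47 genes are named. In the other lists any gene past the size rule could be named, and those described, with the genes named that did not pass, were picked after their values were seen. The members and lists were chosen with earlier results of these data known. Alternatives were other fold, difference and floor values, median, quantile and loess scaling, the median over probe sets, and leaving out probe sets with an s, x or a suffix. Calculations used Python 3.11.15, pandas 2.3.3 and statsmodels 0.14.6. The size rule was also run on simulated data, with changes planted in brighter genes only and well above the fold minimum. That run checks the code and does not test the rule for values under 100 or for small ratios. Casc5, Sgol1, Sgol2a and Gsg2 were read as older names of Knl1, Sgo1, Sgo2a and Haspin. Hjurp and Nek1 were not analysed here. Protein sequences were not used here.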

Additional observations from a re-analysis of the deposited data

How the results depend on the processing

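No paired analysis was possible because each group is 1 array. The count of higher genes among the 47 was 43 with a fold minimum of 2 (without Bub3, Cenpq and Cenpt), 45 with quantile or loess scaling (without Cenpq) and 45 with the median over probe sets (without Foxm1). It was 46 with minimum differences of 50 and 200, floors of 50 and 200 and median scaling, and 0 were lower in each of these settings. Without probe sets of the s, x and a kinds 37 of 38 measured genes were higher, with 2 of 2 measured for the passenger complex and 2 of 2 for the NDC80 complex. The median log2 ratio of the 47 genes depended on the floor, at 3.69 with a floor of 50 and 2.35 with 200, since 24 naive values lie under 100. No called gene of the 47 changed sign in any setting run. A fold minimum of 2 left 2121 higher and 1750 lower probe sets in the whole table, against 4224 and 3707, and left 4 APC/C genes, 2 CDK1 brake and phosphatase genes and 1 of the other kinases higher. A difference minimum of 200 left 2454 lower probe sets and 0 of the other kinases higher, as did a floor of 200 for those kinases (0). Quantile scaling, loess scaling and leaving out s, x and a probe sets each left 3 CDK1 brake and phosphatase genes higher. The cause of these differences between settings was not tested.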
